A study of Mus musculus with 8 samples.

Results

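The genes described here are those that build sterols and fatty acids, together with the proteins that regulate the pathway. They were chosen by name from a list of 35 genes. A gene was measured where the array annotation gave a probe set to it alone, which held for 34 of the 35, with 65 probe sets between them, out of 12393 genes measured in all. By role, 17 measured genes act in sterol synthesis, 12 in fatty acid synthesis and 5 in regulation or sterol transfer; Insig1 is not analysed here.

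The tissue was ventral prostate, taken from males of the FVB strain at an age of 8 weeks. The 4 wild-type arrays carried no transgene, and the 4 transgenic arrays carried the middle T antigen of polyoma virus (MT), a membrane-bound oncoprotein. Both groups shared strain, sex, age and tissue, and no treatment is named. The promoter that drives the transgene and the number of founder lines are not given in the sources used here, and no label says whether arrays of a group came from separate or pooled animals, so that the p-values measure the spread between these arrays, which may be technical. The question was how the MT prostate, in which the transgene induces carcinoma, differed from the normal gland.

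Cells make cholesterol from acetyl-CoA through mevalonate, farnesyl diphosphate, squalene and lanosterol. They make fatty acids by carboxylating acetyl-CoA and building the chain on fatty acid synthase, after which elongases lengthen it and desaturases insert double bonds. Genes of both arms are targets of the sterol regulatory element binding proteins, encoded by Srebf1 and Srebf2, which Scap escorts out of the endoplasmic reticulum when sterols are low and Insig proteins hold back when sterols are high. Srebf2 is best known for driving sterol genes and Srebf1 for driving fatty acid genes. The prostate is a secretory gland whose epithelium makes much lipid, and lipid synthesis has been widely studied in prostate cancer.

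Of 17 sterol synthesis genes, 8 rose in MT (47.1%), 0 fell and 9 did not pass, with Cyp51, Dhcr7, Hmgcs1 and Idi1 in the lead. Of 12 fatty acid genes, 2 rose (Me1 and Elovl1) and 2 fell (Scd1 and Fads1), 16.7% each, and 8 did not pass. Over all genes measured, 19.7% rose and 21.3% fell at the same threshold, an adjusted p under 0.05. Among the 5 regulators and transfer proteins, Stard4 and Insig2 rose and Srebf1 fell. Only Cyp51 among the 34 changed by 2-fold or more.

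The promoters of 4 sterol genes are shown because their genes moved the same way: they are those that rose and have a single start in the RefSeq promoter table (GRCm38.p6). Each stretch is the 150 bases before the start, written 5′ to 3′ on the gene's strand. Capitals mark matches on either strand to the sterol regulatory element TCACNCCAC, the CCAAT box (CCAAT, bound by NF-Y) and the GC box (GGGCGG, bound by Sp1).
Hmgcs1, chr13:119690201-119690350, plus strand: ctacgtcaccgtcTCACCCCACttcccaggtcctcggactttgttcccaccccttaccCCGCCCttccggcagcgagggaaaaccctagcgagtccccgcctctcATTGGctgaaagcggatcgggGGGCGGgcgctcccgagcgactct
Idi1, chr13:8885456-8885605, plus strand: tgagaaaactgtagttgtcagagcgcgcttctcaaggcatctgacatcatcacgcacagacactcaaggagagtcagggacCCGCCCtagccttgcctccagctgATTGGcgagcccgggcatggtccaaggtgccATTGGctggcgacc
Cyp51, chr5:4104698-4104847, minus strand: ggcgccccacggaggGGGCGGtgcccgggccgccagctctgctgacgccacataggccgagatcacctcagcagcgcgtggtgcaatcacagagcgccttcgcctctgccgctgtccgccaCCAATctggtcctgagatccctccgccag
Nsdhl, chrX:72918371-72918520, plus strand: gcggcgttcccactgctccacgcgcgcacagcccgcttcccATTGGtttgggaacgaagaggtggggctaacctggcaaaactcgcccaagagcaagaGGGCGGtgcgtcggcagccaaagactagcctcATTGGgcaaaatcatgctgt

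All 4 stretches held at least a CCAAT box and a GC box, and the sterol regulatory element word stood in Hmgcs1 alone, from -137 to -129. The RefSeq table covers 250 bases before to 50 after each start and held 38 promoters for 27 of the 34 genes. It had no entry for Fdps, Fdft1, Sqle, Stard4, Scd1, Scd2 and Fads1. The shares below thus leave out Scd1 and Fads1, the fatty acid genes that fell, and cover 5 of the 8 sterol genes that rose. A CCAAT box was in 24 of the 38 (63.2%), against 37.4% of all 32841 promoters searched and 37.1% of those of genes on the array. In the sterol arm it was in 14 of 17 promoters, and in the fatty acid arm in 6 of 12. Counted by gene with an entry, these were 14 of 14 and 6 of 9, for which no share over all genes was computed. The GC box was in 13 of those 14 sterol genes. Only 5 of the 14 had risen, so both boxes were also in sterol genes that did not pass. The GC box was in 27 of the 38 (71.1%), against 35.7% of all promoters and 55.4% of those of genes on the array. The sterol regulatory element word was in 1 of the 38 (2.63%) and in 1.24% of all promoters. The E-box form that SREBPs also bind, TCACGTGA, was in 0 of the 38 and in 0.974% of all. Across the 38 promoters, matches of different motifs overlapped 1 time. A match is a run of letters and was not tested as a binding site.

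All levels below are log2 values after RMA, a method that corrects background, normalizes the arrays to 1 distribution and summarises each probe set. A difference is MT minus wild type on that scale, with the standard error (SE) of the fit. Means carry an SD over the 4 arrays of a group. Adjusted p-values come from limma, fitted over all 12393 genes, and a gene is said to have risen or fallen at an adjusted p under 0.05. By that rule 41.1% of all genes passed, 19.7% being higher in MT and 21.3% lower, and the groups did not overlap for 40.0%.

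Set against those shares, 12 of the 34 genes (35.3%) rose and 3 (8.82%) fell, and the groups did not overlap for 11 (32.4%). The sterol arm had 8 of 17 higher (47.1%) with a median difference of 0.16, the fatty acid arm had 2 of 12 higher and 2 of 12 lower (16.7% each) with a median of -0.13, and the median over all genes was -0.01. The difference between the arms was not tested. Counted by probe set, each fitted on its own, 20 of 65 (30.8%) were higher and 7 (10.8%) lower, where 18.3% and 20.1% of all 20380 probe sets were.

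**Figure D1:**
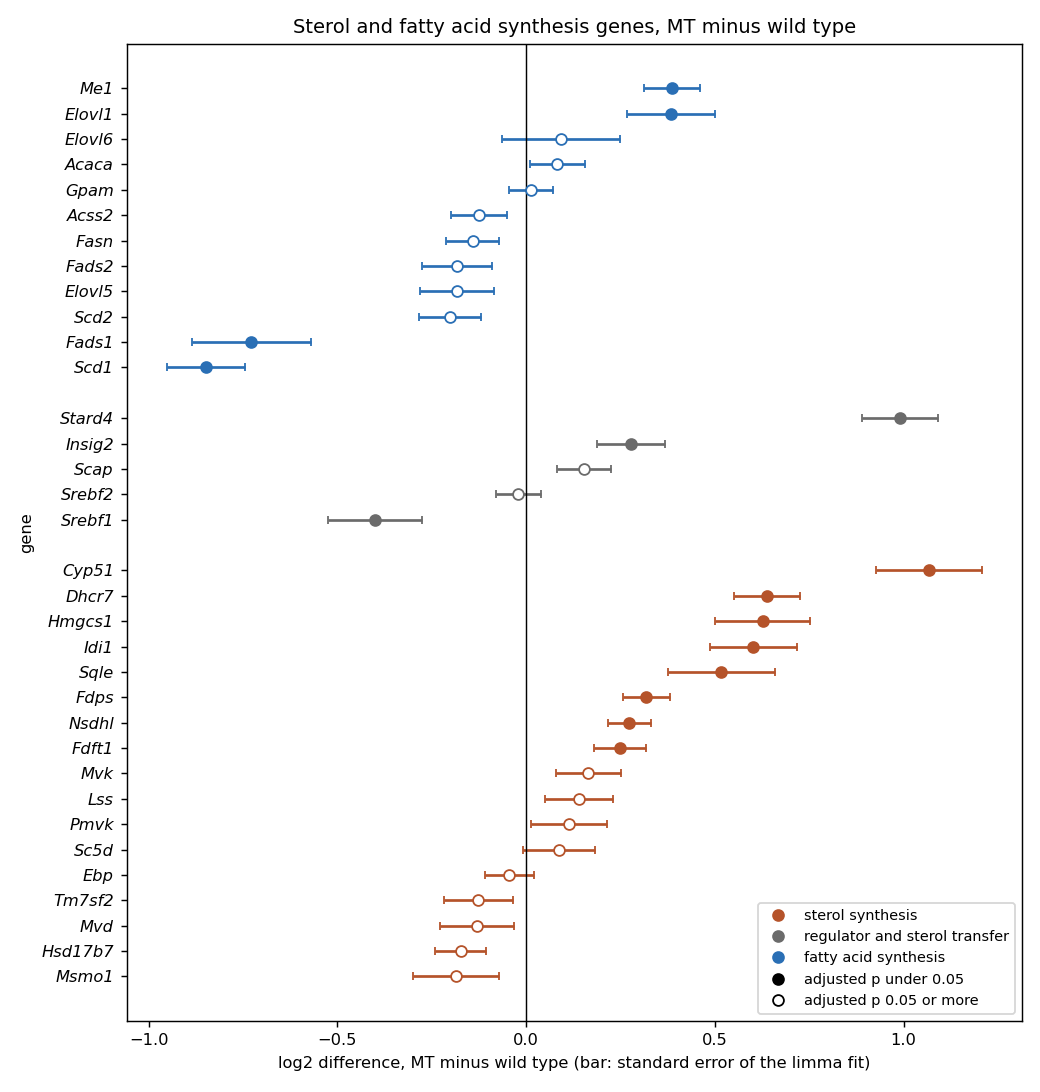
Log2 difference, MT minus wild type, of the 34 measured genes by arm; points are limma estimates, bars their standard errors, and filled points have an adjusted p under 0.05. The filled points of the sterol arm all lie to the right of 0, from Fdft1 (0.25) to Cyp51 (1.07), while the fatty acid arm has filled points on both sides, Scd1 (-0.85) and Fads1 (-0.73) to the left.

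From acetyl-CoA to farnesyl diphosphate, 3 of 6 genes rose. Hmgcs1, which forms HMG-CoA, read 7.94, 7.60, 7.72 and 8.13 on wild-type arrays 1 to 4 and 8.64, 8.61, 8.20 and 8.45 on MT arrays 1 to 4. Its lowest MT array, number 3, lay just above its highest wild-type array, number 4. The difference was 0.63 ± 0.13 (SE; adjusted p = 0.00200), or 1.54-fold. Idi1, which isomerises isopentenyl diphosphate, read 6.99, 7.02, 6.72 and 7.16 in wild type and 7.75, 7.70, 7.29 and 7.57 in MT, with no overlap. It rose by 0.60 ± 0.12 (adjusted p = 0.00152). Fdps, which joins isoprene units into farnesyl diphosphate, rose from 8.09 ± 0.06 to 8.41 ± 0.06, a tight difference of 0.32 ± 0.06 (adjusted p = 0.00167).

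The enzymes between Hmgcs1 and Idi1 did not pass. Mvk and Pmvk, the kinases that phosphorylate mevalonate, differed by 0.16 ± 0.09 (adjusted p = 0.154) and 0.11 ± 0.10 (adjusted p = 0.415). Mvd, which decarboxylates the product, differed by -0.13 ± 0.10 (adjusted p = 0.333). The groups overlapped for all 3 genes. Without MT array 3, where Pmvk read 6.35 against 6.67 to 6.85 on the other MT arrays, its difference was 0.22 (adjusted p = 0.0385).

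In the segment from farnesyl diphosphate to lanosterol, 2 of 3 genes rose. Fdft1, squalene synthase, read 7.88, 7.87, 7.80 and 7.83 in wild type and 8.11, 8.12, 7.94 and 8.21 in MT, a rise of 0.25 ± 0.07 (adjusted p = 0.0131). Sqle, the squalene epoxidase that acts as a control point of the pathway, read 7.38, 6.91, 7.00 and 7.36 in wild type and 7.96, 7.74, 7.34 and 7.68 in MT. It rose by 0.52 ± 0.14 (adjusted p = 0.0125), although MT array 3 lay below wild-type arrays 1 and 4. Lss, which closes the ring to form lanosterol, differed by 0.14 ± 0.09 (adjusted p = 0.243) on the probe set that stood for it.

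Between lanosterol and cholesterol, 3 of 8 genes rose. Cyp51, the lanosterol demethylase, read 6.71, 6.28, 6.10 and 6.47 in wild type and 7.62, 7.62, 7.13 and 7.46 in MT. Every MT array lay above every wild-type array, and the difference of 1.07 ± 0.14 (adjusted p = 0.000101) was 2.10-fold. Dhcr7, which carries out the last reduction to cholesterol, read 7.18, 7.17, 6.95 and 6.98 in wild type and 7.86, 7.77, 7.53 and 7.66 in MT. It rose by 0.64 ± 0.09 (adjusted p = 0.000139). Nsdhl, a dehydrogenase of sterol demethylation, rose by less but with little spread, from 7.78 ± 0.03 to 8.05 ± 0.01 (0.27 ± 0.06, adjusted p = 0.00224).

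The 5 others of that segment did not pass and their groups overlapped. Msmo1, the methyl oxidase that acts before Nsdhl, differed by -0.19 ± 0.11 (adjusted p = 0.227). Hsd17b7, the ketoreductase that acts after Nsdhl, differed by -0.17 ± 0.07 (adjusted p = 0.0593). Without MT array 1 both passed as lower, Msmo1 at -0.29 (adjusted p = 0.0402) and Hsd17b7 at -0.22 (adjusted p = 0.0266). Hsd17b7 also passed with renewed quantile normalization and with median centring. Its second probe set went the other way, by 0.15 (adjusted p = 0.210 among all probe sets), and did not pass. Averaged over both probe sets, the Hsd17b7 difference was -0.01 (adjusted p = 0.913). The sterol reductase Tm7sf2 (-0.13 ± 0.09), the isomerase Ebp (-0.04 ± 0.07) and the desaturase Sc5d (0.09 ± 0.10) had adjusted p-values from 0.307 to 0.634.

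**Figure D2:**
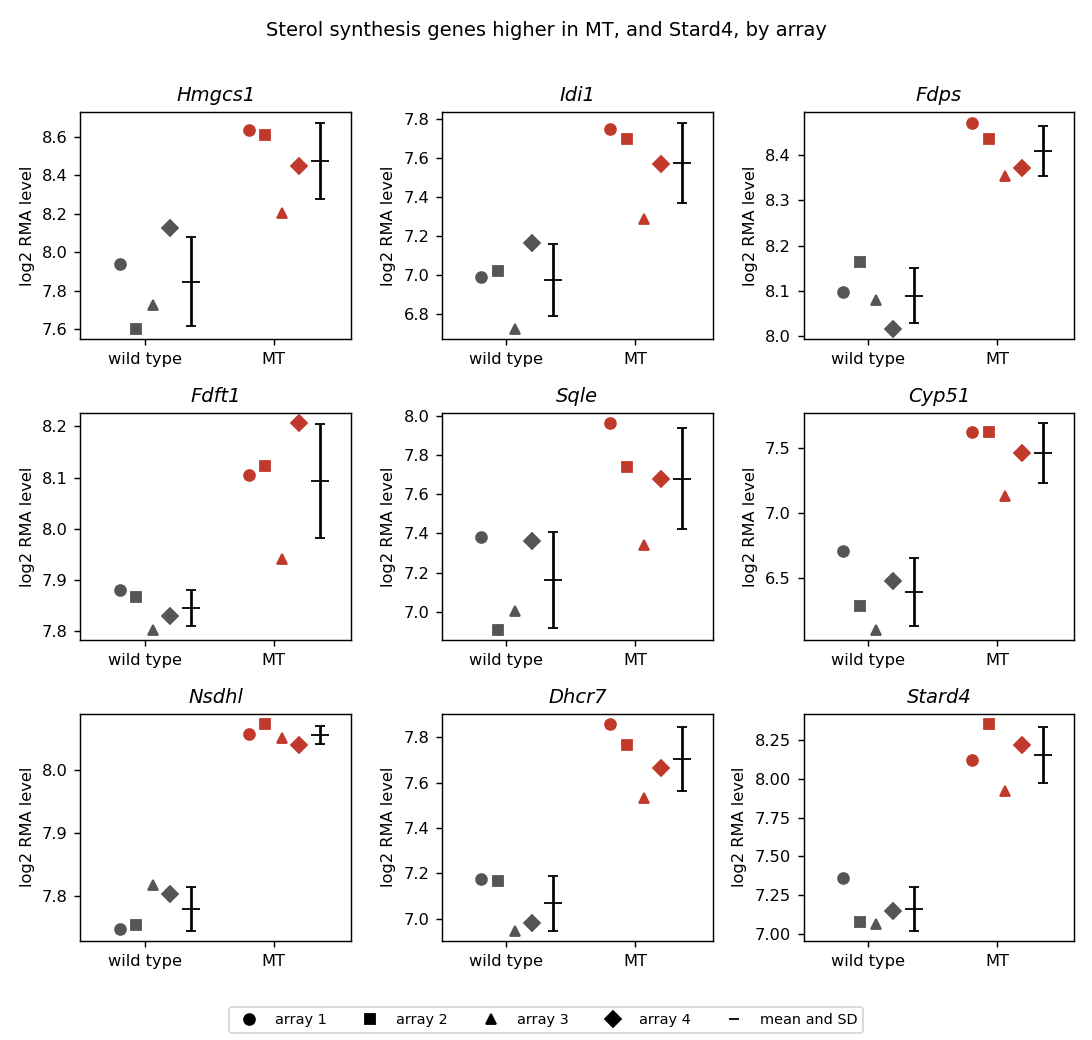
Log2 RMA levels by array of the 8 sterol synthesis genes that rose and of Stard4; grey points are wild type, red points MT, symbols mark the array number and the bar at the right of each group gives the mean and SD of 4 arrays. MT array 3 (triangle) is the lowest MT array for Hmgcs1, Idi1, Fdps, Fdft1, Sqle, Cyp51, Dhcr7 and Stard4, and wild type and MT overlap for Sqle alone.

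Some arrays stood lowest or highest in their group for many of the sterol genes, more so in MT than in wild type. MT array 3 was the lowest MT array for 13 of the 17 sterol genes and for 7 of the 8 that rose, the exception among the 8 being Nsdhl. MT array 1 was the highest for 11 of 17. In wild type, array 3 was the lowest for 9 of 17 and array 1 the highest for 8. Among the 8 genes that rose, each of these wild-type arrays held that rank for 4. Such ranks were not counted over all genes. The mean over the 8 genes that rose ran from 7.27 to 7.49 on the wild-type arrays and from 7.73 (array 3) to 8.06 (array 1) in MT. Without MT array 3, 9 sterol genes rose, and with it and every other array kept, 8 did. Left out singly, no other array changed the count of 8.

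**Figure D3:**
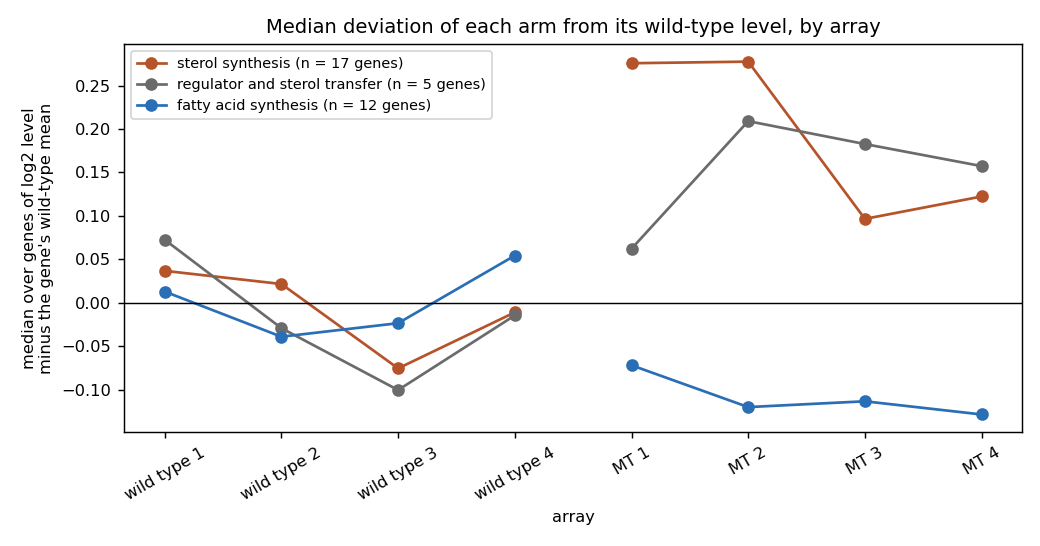
For each array, the median over the genes of an arm of the log2 level minus that gene's wild-type mean. The sterol arm (brown) spans -0.08 to 0.04 in wild type and 0.10 to 0.28 in MT, while the fatty acid arm (blue) lies between -0.13 and -0.07 on the MT arrays; the lines join arrays for legibility and imply no order.

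Many markers of cell types and of the cell cycle moved in the same arrays, where 19.7% of all genes rose and 21.3% fell. All 6 measured markers of cycling cells rose, with a mean level of 5.28 to 5.87 in wild type and 7.37 to 7.56 in MT. All 7 luminal epithelial markers rose as well (10.95 to 11.14 in wild type, 11.91 to 12.05 in MT), as did 6 of 10 macrophage markers (6.58 to 7.19, then 7.50 to 7.67). Of 4 basal epithelial markers 3 fell, Krt5, Krt15 and Trp63 (mean over the 4 markers 7.15 to 7.79 in wild type, 6.56 to 6.72 in MT). Smooth muscle markers fell for 8 of 8 (9.06 to 9.78 in wild type, 8.06 to 8.85 in MT) and fibroblast markers for 7 of 8 (8.41 to 9.14, then 7.51 to 8.03). The 4 measured prostate secretory markers, Pbsn among them, were at mean levels of 12.76 to 13.10 in wild type and fell to 9.56 to 10.42 in MT, and the mean over 5 seminal vesicle markers was 3.63 to 3.82 on all arrays. Of those 5, 2 were on every array at or below the highest bacterial control of that same array. Endothelial markers fell for 1 of 6 and rose for 0, and of 6 Schwann cell and nerve markers 1 rose and 1 fell. RNA quality also moved with the groups: the 3′ minus 5′ log2 signal of Gapdh was 0.54 to 0.92 in wild type and 0.45 to 0.64 in MT, with MT arrays 2 to 4 below every wild-type array, and that of Actb was 0.71 to 1.05 and 0.57 to 0.85. In this bulk tissue fewer cells of a type and less RNA per cell cannot be told apart. The part of cell make-up and of RNA quality in the sterol result was not tested.

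Of the regulators, Stard4 changed most. Stard4, a soluble protein that carries sterols between membranes and is itself a sterol-regulated target, read 7.36, 7.08, 7.06 and 7.15 in wild type and 8.12, 8.35, 7.92 and 8.22 in MT. The groups lay far apart, and the rise of 0.99 ± 0.10 (adjusted p = 1.46e-05) was 1.99-fold. Its second probe set rose by 0.88 ± 0.13 (adjusted p = 0.000219 among all probe sets).

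Of the SREBP genes themselves, Srebf1 fell and Srebf2 did not pass. Srebf1 read 9.15, 8.76, 8.85 and 9.25 in wild type and 8.85, 8.63, 8.56 and 8.38 in MT, and MT array 1 lay within the wild-type range. It fell by 0.40 on the log2 scale (SE 0.13, adjusted p = 0.0240), a call that was lost without wild-type array 1 (-0.35, adjusted p = 0.0650), wild-type array 4 (-0.32, adjusted p = 0.0650), MT array 3 (-0.38, adjusted p = 0.0600) or MT array 4 (-0.33, adjusted p = 0.0745). The Srebf1 probe set is of a type that reads several transcripts of the gene, so its forms were not told apart. Srebf2 differed by -0.02 ± 0.06 (adjusted p = 0.814), from 7.91 ± 0.05 to 7.89 ± 0.05. These are RNA levels; cleavage of the SREBP proteins was not measured.

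Insig2, which retains the Scap complex in the endoplasmic reticulum, read 8.36, 8.55, 8.17 and 8.16 in wild type and 8.54, 8.63, 8.54 and 8.65 in MT. The rise of 0.28 ± 0.09 (adjusted p = 0.0267) was lost without wild-type array 3 (0.23, adjusted p = 0.0709), wild-type array 4 (0.23, adjusted p = 0.0723), MT array 2 (0.26, adjusted p = 0.0666) or MT array 4 (0.26, adjusted p = 0.0709). Median centring of the arrays ended it too (0.24, adjusted p = 0.0586). The 2 other probe sets of Insig2 differed by 0.15 (adjusted p = 0.0910) and 0.11 (adjusted p = 0.384) among all probe sets and did not pass. Scap differed by 0.15 ± 0.07 (adjusted p = 0.111).

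In the fatty acid arm 2 of 4 desaturases fell and neither of the chain-building enzymes passed the threshold. Scd1, which makes monounsaturated fatty acids, read 11.76, 11.78, 11.72 and 12.20 in wild type and 11.10, 11.06, 10.94 and 10.96 in MT. Every MT array lay below every wild-type array. Scd1 fell by 0.85 on the log2 scale (SE 0.10, adjusted p = 5.93e-05), or 1.80-fold. Its second probe set had a difference of -0.42 ± 0.12 (adjusted p = 0.0144).

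Scd2, a paralog of Scd1 with the same activity, read 12.24, 12.16, 12.29 and 12.45 in wild type and 12.20, 11.99, 12.00 and 12.15 in MT, and the groups overlapped. Its difference of -0.20 ± 0.08 (adjusted p = 0.0681) did not pass. A block for the array number brought it past the threshold at the same -0.20 (adjusted p = 0.0497), and so did leaving out wild-type array 2 (-0.24, adjusted p = 0.0390), median centring (-0.24, adjusted p = 0.0260), a filter at the median level (adjusted p = 0.0455) and a prior with trend (adjusted p = 0.0348). The 3 probe sets of Scd2 differed by -0.33 to 0.00, with the middle in level lower by itself (-0.33 ± 0.08, adjusted p = 0.0102).

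Fads1 and Fads2 desaturate polyunsaturated fatty acids. Fads1 read 7.58, 6.74, 7.20 and 7.43 in wild type and 6.32, 6.45, 6.59 and 6.68 in MT, so that the highest MT array lay just under the lowest wild-type array. It fell by 0.73 on the log2 scale (SE 0.16, adjusted p = 0.00332). Fads2 read 6.54, 6.10, 6.29 and 6.44 in wild type and 6.06, 6.19, 6.17 and 6.22 in MT, a difference of -0.18 ± 0.09 (adjusted p = 0.140). Wild-type array 2 was the lowest wild-type array for Fads1, Fads2 and Srebf1, and without it Fads2 passed as lower (-0.26, adjusted p = 0.0228).

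**Figure D4:**
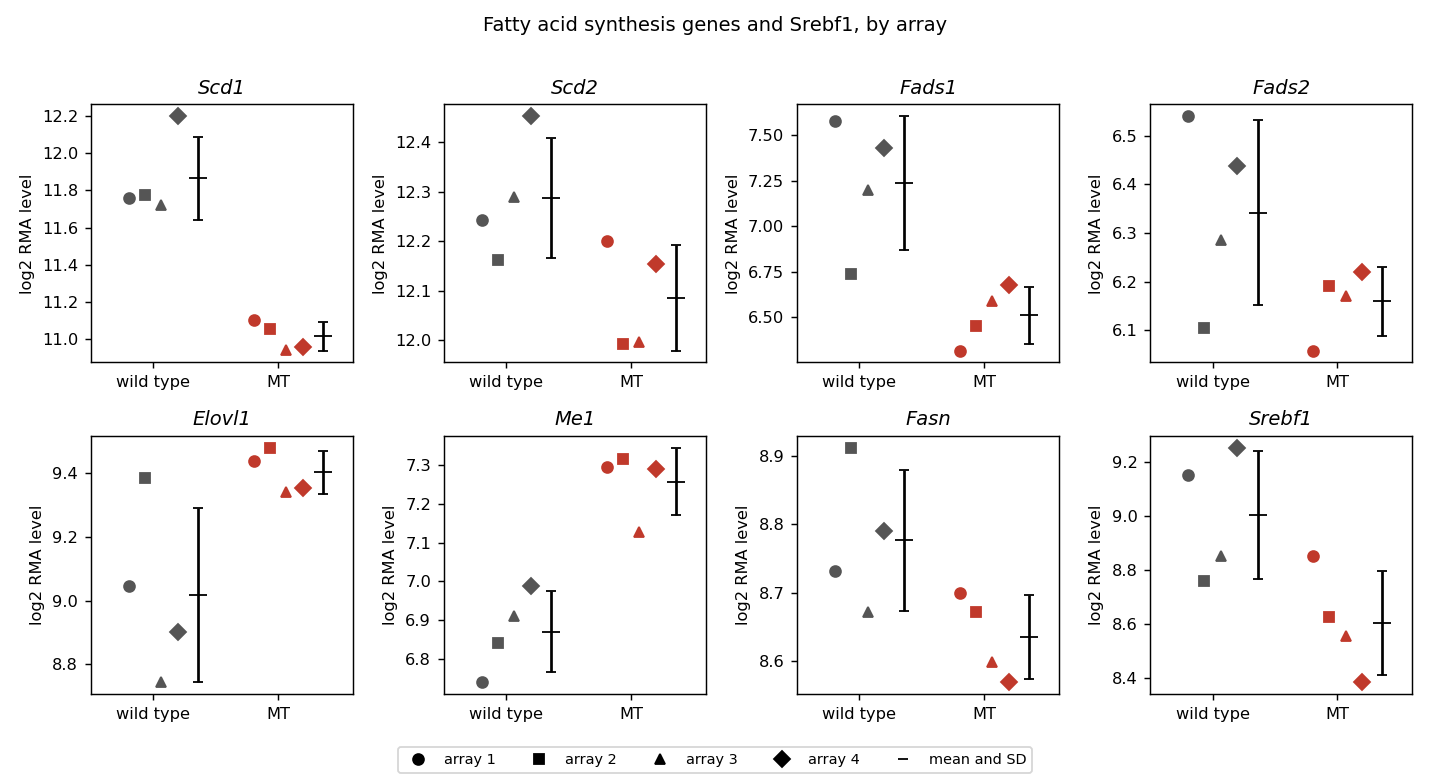
Log2 RMA levels by array of 7 fatty acid synthesis genes and Srebf1, with grey for wild type, red for MT, symbols for the array number and bars for mean and SD of 4 arrays. Wild type and MT are apart for Scd1, Fads1 and Me1, and overlap for Scd2, Fads2, Elovl1, Fasn and Srebf1.

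Of 3 elongases in the fatty acid arm, 1 rose. Elovl1, which extends saturated and monounsaturated very long chains, read 9.04, 9.38, 8.74 and 8.90 in wild type and 9.44, 9.48, 9.34 and 9.35 in MT. It rose by 0.38 ± 0.12 (adjusted p = 0.0213). Its other probe sets, of a type that can read related sequences, rose without overlap of the groups. They differed by 0.50 (adjusted p = 0.00155) and 0.62 (adjusted p = 0.000840) among all probe sets. Leaving out wild-type array 3 (0.29, adjusted p = 0.0555), wild-type array 4 (0.35, adjusted p = 0.0551), MT array 1 (0.37, adjusted p = 0.0509) or MT array 2 (0.36, adjusted p = 0.0577) ended the call of the probe set that stood for the gene. Elovl5, the elongase of polyunsaturated chains, differed by -0.18 ± 0.10 (adjusted p = 0.164), and passed as lower without wild-type array 3 (-0.26, adjusted p = 0.0410). Elovl6, which extends palmitate, differed by 0.09 ± 0.16 (adjusted p = 0.678), and the sign turned without wild-type array 2 (-0.04) or MT array 4 (-0.01).

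The enzymes that start and build the chain did not pass. Fasn, fatty acid synthase, read 8.73, 8.91, 8.67 and 8.79 in wild type and 8.70, 8.67, 8.60 and 8.57 in MT, a difference of -0.14 ± 0.07 (adjusted p = 0.132). Acaca, the acetyl-CoA carboxylase, stood at 4.19 ± 0.09 and 4.27 ± 0.10, near the low end of the array, and differed by 0.08 ± 0.07 (adjusted p = 0.410). The 12 bacterial control probe sets, the highest of which on each array was the floor used here, spanned 2.57 to 3.90 over all arrays.

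Among suppliers of the pathway, Me1, the malic enzyme that yields NADPH, read 6.74, 6.84, 6.91 and 6.99 in wild type and 7.30, 7.32, 7.13 and 7.29 in MT. The groups did not overlap, and the rise was 0.39 ± 0.07 (adjusted p = 0.00147). Acss2, which makes acetyl-CoA from acetate, differed by -0.13 ± 0.07 (adjusted p = 0.212). Gpam, which begins glycerolipid assembly, was between 9.07 and 9.19 on all 8 arrays and differed by 0.01 ± 0.06 (adjusted p = 0.881); the sign of that difference turned under 4 alternatives.

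Adipocytes express many of the fatty acid genes, and adipocyte markers were lower in MT for 5 of 9 measured, with 0 higher. Their mean level was 5.64, 6.44, 6.78 and 7.44 on wild-type arrays 1 to 4 and 5.37, 6.07, 5.39 and 5.23 on MT arrays 1 to 4, and none of the 9 was at or below that floor on all arrays of a group. Adipoq, the adipocyte hormone adiponectin, spanned 5.21 to 9.39 in the wild-type group, with MT arrays at 4.22 to 6.70. Wild-type arrays 2 to 4 had more marker signal than every MT array, and wild-type array 1 had less than MT array 2. Wild-type array 4, with the most marker signal, had the highest Scd1 and Srebf1. Wild-type array 1, with the least in its group, had the highest Fads1 (7.58), and its Srebf1 was 9.15 against 9.25 on array 4. MT array 2, with the most marker signal in MT, was the highest MT array for none of Scd1, Fads1 and Srebf1. The part of adipocyte RNA in the differences of Scd1, Fads1 and Srebf1 was not tested.

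**Figure D5:**
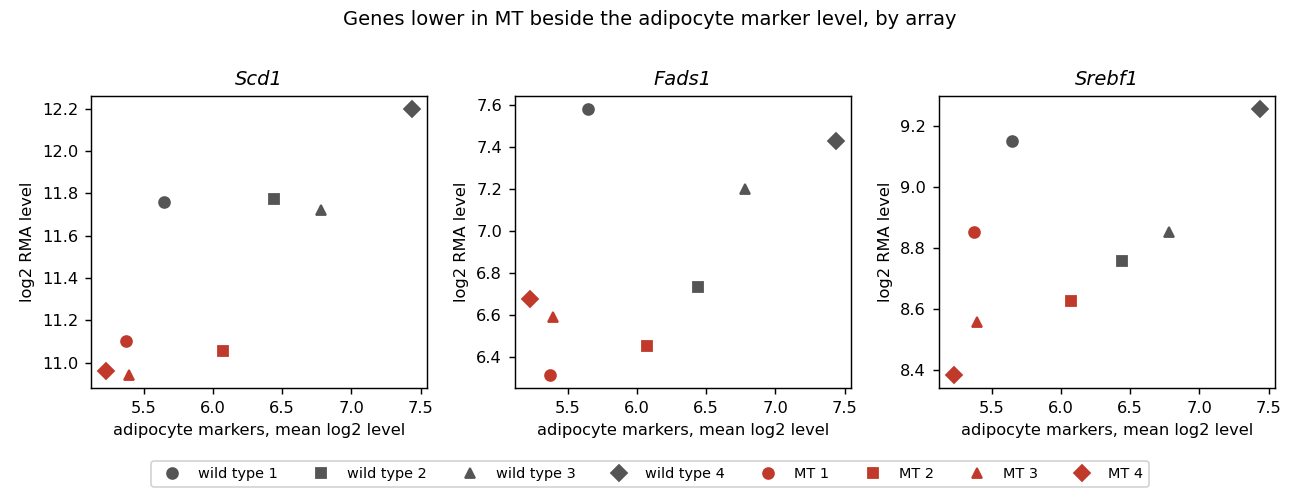
Levels of Scd1, Fads1 and Srebf1 (log2 RMA, y axis) on each of the 8 arrays against the mean log2 level of 9 adipocyte markers on the same array (x axis), grey for wild type and red for MT. The wild-type arrays span 5.64 to 7.44 on the x axis and the MT arrays 5.23 to 6.07; the groups are apart on the y axis for Scd1 and Fads1 and overlap for Srebf1.

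Probe sets of a gene did not always move together. Of 22 genes with several probe sets, 14 had all of them on the same side of 0, and 1 had probe sets past the threshold both ways. That gene was Fdps, whose second probe set stood at 3.22 ± 0.12 in wild type and 2.95 ± 0.06 in MT, at or below the highest bacterial control of the same array on all 8 arrays. Averaged over both, the Fdps difference was 0.03 (adjusted p = 0.742). For Lss, a dimmer probe set fell from 5.19 ± 0.18 to 4.65 ± 0.07 (-0.54 ± 0.09, adjusted p = 0.000686 among all probe sets), against 0.14 for the brightest. Fdft1 rose on its 2 brighter probe sets and did not pass on the 2 dimmer, so that their average of 0.14 did not pass (adjusted p = 0.112). Cyp51 had an average of 0.45 over 3 probe sets, since its 2 other probe sets differed by 0.16 (adjusted p = 0.206) and 0.12 (adjusted p = 0.202) and did not pass. Both were dim, with means of 4.32 and 3.52 in wild type and 4.48 and 3.64 in MT. The dimmer was at or below the highest bacterial control of the same array on 5 of the 8 arrays. Of 4 Hmgcs1 probe sets 3 rose, by 0.63 to 0.69, and both of Idi1 rose.

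Neighbouring genes of lipid metabolism, grouped in lists by function, went both ways. So did all genes tested, with 19.7% higher in MT and 21.3% lower. Of 9 other measured genes of the SREBP pathway, 2 rose and 2 fell (22.2% each). Tmem97, a sterol-regulated membrane protein, rose by 0.70 ± 0.08 (adjusted p = 2.45e-05). The phosphatidate phosphatase Lpin1 (-0.83 ± 0.08) and Mbtps1 (-0.47 ± 0.09), the protease that makes the first cut in SREBPs, fell. Of 6 genes of the prenyl and dolichol branches off the mevalonate pathway, 1 fell (16.7%), the geranylgeranyl transferase subunit Rabggtb (-0.33 ± 0.09, adjusted p = 0.00997). Sterol efflux, storage and oxysterol genes had 3 of 12 higher and 3 lower (25% each). The sterol exporter Abcg1 rose by 1.30 ± 0.10 (adjusted p = 1.34e-06), and the sterol hydroxylase Cyp27a1 (-1.18 ± 0.15) and the lipoprotein receptor Scarb1 (-0.86 ± 0.11) fell.

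Further genes that modify or use fatty acids also divided. In the list of activation, glycerolipid assembly and further elongation and desaturation genes, 6 of 19 rose (31.6%) and 5 fell (26.3%). The elongase Elovl7 rose by 1.49 ± 0.09 (adjusted p = 3.59e-07), and the acyltransferases Agpat3 (-1.04 ± 0.09) and Dgat2 (-0.80 ± 0.10) fell. In fatty acid oxidation 2 of 11 rose (18.2%) and 4 fell (36.4%). Ppara, the receptor that drives oxidation genes, fell from 5.21 ± 0.06 to 4.48 ± 0.04, and Etfdh fell by 0.57 on the log2 scale, while the carnitine carrier Slc25a20 rose by 0.45 ± 0.10. The medians of these 5 lists lay between -0.05 and 0.04, against 0.16 for sterol synthesis and -0.01 for all genes.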

How the data were processed

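Expression was measured on 8 Affymetrix arrays, 4 per group. The deposited values are log2 values made by the authors with RMA, per the submitters' processing notes. They were used as deposited, with array medians from 6.21 to 6.23. Precision is limited by the number of arrays. Of 22690 probe sets, 64 controls were left out, 20380 had a single gene symbol, and 691 with several symbols and 1555 with none were named for no gene. The probe set with the highest mean stood for a gene. MT was compared with wild type by limma (lmFit, eBayes, two-sided, no covariate, Benjamini-Hochberg over 12393 genes, threshold 0.05), tested first on simulated data. Members, lists and tests were chosen with earlier results of these data known. Named are all measured members and, per other list, up to 3 genes past the threshold with the largest change. The order of pathway steps was textbook knowledge.

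The titles number the arrays 1 to 4 in both groups. Same-numbered arrays deviated together from their group means (correlations across genes 0.10 to 0.18, and 8 of 8 arrays correlated best with their own number), so the number was also fitted as a block. This pairing was read from the values, because the labels name no litter, day or batch. Further settings tried were a trended robust prior, weighted arrays, different rules for choosing probe sets, dropping genes below the median, rescaling the arrays and omitting arrays. Protein sequences are not analysed here. The fits used limma 3.58.1 under R 4.3.3, and the promoter search Python 3.11.15.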

Additional observations from a re-analysis of the deposited data

Results flagged for a closer look

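Of 150 sets of 4 arrays tested for a value far from the others, 9 stood out by Dixon's test, where chance gives about 5%. Among the members these were Scd1 at 12.20 on wild-type array 4, with the next array at 11.78, Me1 at 7.13 on MT array 3, the other MT arrays being at 7.29 or more, and Hsd17b7 at 6.58 on MT array 1. Without the array concerned, Scd1 fell by 0.74 on the log2 scale (adjusted p = 1.76e-05), Me1 rose by 0.43 (adjusted p = 0.00164) and Hsd17b7 differed by -0.22 (adjusted p = 0.0266), the last then past the threshold. Outside the members they were Lpin1 at 8.72 on wild-type array 3, Adipoq at 6.70 and Fabp4 at 8.23 on MT array 2, the fibroblast gene Dcn at 11.49 on wild-type array 2, and the myelin gene Mbp at 7.90 on wild-type array 2 and at 8.04 on MT array 2.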

How the results depend on the processing

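Of 15 members that passed, 10 kept their direction and stayed past the threshold under each alternative that could be run for them (18 at most, with the omission of the pair of wild-type array 4 and MT array 2 added after seeing the data); the exceptions were Fdps, Fdft1, Insig2, Srebf1 and Elovl1. The count of 8 higher sterol genes ran from 6 (mean over probe sets) to 9. The count of lower sterol genes, 0 with all arrays, was 1 among unique-type probe sets, 1 after renewed quantile normalization, 1 with median centring, 2 with every probe set on its own, and 0 to 2 without single arrays. Higher regulators, 2 with all arrays, were 1 with median centring, 1 without the pair of arrays and 1 to 2 without single arrays. Lower regulators, 1 with all arrays, were 0 among unique-type probe sets, where Srebf1 has none, 0 without the pair and 0 to 1 without single arrays. Higher fatty acid genes, 2 with all arrays, were 1 among unique-type probe sets, where Elovl1 has none, 1 without the pair and 1 to 2 without single arrays; lower ones were 2 to 4 without single arrays. The sign turned for Lss (-0.16 averaged over probe sets, -0.54 among unique-type probe sets), for Elovl6 (-0.040 without wild-type array 2 and -0.0065 without MT array 4, and up to 0.20 without single arrays) and for Gpam (-0.12 averaged over probe sets, -0.026 with median centring, -0.0085 without wild-type array 4 and -0.0018 without MT array 4, and up to 0.030 without single arrays). The replicate block changed no other call among members than that of Scd2, and gave 8 higher sterol genes, 2490 higher genes and 2721 lower genes in all. The cause of these changes was not tested.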
